A study of Homo sapiens with 18 samples.

Results

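The V0 sector and accessory subunits of the vacuolar H+-ATPase were described here through 9 genes, namely ATP6V0A1, ATP6V0A2, TCIRG1, ATP6V0B, ATP6V0C, ATP6V0D1, ATP6V0E1, ATP6AP1 and ATP6AP2. They were chosen by name, with earlier results of these data known. Each was matched through its RefSeq transcript to 1 of the 20802 transcript targets that the counts cover. All 9 were among the 10213 targets with enough counts to be tested. The cells were RKO, an established human colorectal carcinoma line, transfected with 30 nM of 1 siRNA and collected 72 h later. The nontargeting groups received siCtrl#1 or siCtrl#2, and ESCRT-I, the endosomal complex that sorts membrane proteins towards the lysosome interior, was depleted with siTsg101#1 or siTsg101#2 against TSG101, or with siVps28#1 or siVps28#2 against VPS28. Each of the 6 groups held 3 libraries, 1 from each of 3 batches given in the labels, and all groups share the transfection procedure. The findings are limited to a single cell line and to transient depletion.

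The vacuolar H+-ATPase pumps protons into lysosomes, endosomes, the Golgi and secretory vesicles. Its cytosolic V1 sector hydrolyses ATP, and the membrane-embedded V0 sector carries protons across the membrane through a ring of c subunits that turns against subunit a. Humans have several forms of subunit a, which direct the pump to different organelles, and 2 accessory proteins, encoded by ATP6AP1 and ATP6AP2, take part in its assembly.

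Each library held between 2561790 and 7466916 counts on genes. Levels are given as CPM, the counts scaled to a common library total, after TMM normalization, a step that evens out library size and composition. They are not compared between genes, because each gene was read through a short amplicon whose yield differs between genes. The depleted genes were low in the libraries that the labels name. TSG101 was at 2.49 to 4.99 CPM in the 6 libraries with siTsg101 and at 74.5 to 167 CPM in the other 12, and VPS28 was at 3.48 to 7.78 CPM in the 6 libraries with siVps28 and at 65.1 to 112 CPM in the others. Of the epithelial markers, KRT18 was at 45.3 to 86.1 CPM, while KRT8 and EPCAM were low and CDH1 had 0 counts in every library. The summed epithelial markers were at 103 to 126 CPM in the nontargeting libraries and at 73.5 to 117 CPM in the depleted ones, and their part in the results below was not tested. Haematopoietic markers had 0 counts, and the summed fibroblast and endothelial markers did not exceed 1.54 CPM.

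The MiT-TFE factors are known to bind the letters CACGTG, most strongly within TCACGTGA, and promoters of the group were searched for both, each of which reads the same on both strands and the second of which contains the first. The RefSeq windows of 300 bases, 250 before and 50 after the transcription start, in GRCh38.p14, covered 8 of the 9 genes with 10 windows. Of all 35116 windows, 7.26% held CACGTG and 0.98% held TCACGTGA. In the group, 2 genes held CACGTG. ATP6V0D1 had TCACGTGA, with its core 59 to 54 bases before the start, and ATP6V0B had CACGTG at 57 to 52 and 39 to 34 bases before it. The windows of ATP6V0A1, ATP6V0A2, TCIRG1, ATP6V0C, ATP6AP1 and ATP6AP2 held neither. A match is a description of letters and not of binding. The pair of promoters with a match is shown with the matched letters in capitals, ATP6V0D1 from chr16:67481108-67481407 on the minus strand and ATP6V0B from chr1:43974710-43975009 on the plus strand.
ATP6V0D1: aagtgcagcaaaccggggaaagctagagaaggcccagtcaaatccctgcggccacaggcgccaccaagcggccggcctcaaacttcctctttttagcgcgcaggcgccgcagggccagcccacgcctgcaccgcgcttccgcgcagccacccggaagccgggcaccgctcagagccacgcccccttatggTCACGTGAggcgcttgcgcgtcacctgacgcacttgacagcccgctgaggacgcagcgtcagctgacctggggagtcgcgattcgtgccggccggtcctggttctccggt
ATP6V0B: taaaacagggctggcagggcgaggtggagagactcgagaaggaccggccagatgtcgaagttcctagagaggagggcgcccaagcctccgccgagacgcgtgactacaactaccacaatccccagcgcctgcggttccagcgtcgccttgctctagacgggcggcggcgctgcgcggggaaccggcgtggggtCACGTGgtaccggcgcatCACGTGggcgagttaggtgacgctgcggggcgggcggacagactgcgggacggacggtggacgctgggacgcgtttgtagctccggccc

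Subunit a is the stator of the V0 sector, and ATP6V0A1 encodes its a1 form, found on lysosomes and synaptic vesicles among other membranes. In GRCh37, the build of the files, the gene spans chr17:40610862-40674600 on the plus strand, and 144 of its 12938 exon bases lie in other genes of that strand. The siCtrl#1 libraries held 49.8, 33.2 and 55.7 CPM in batches 1, 2 and 3, and the siCtrl#2 libraries 85.1, 77.2 and 93.5 CPM. With siTsg101#1 the values were 144, 109 and 121 CPM, and with siTsg101#2 they were 111, 76.9 and 113 CPM. With siVps28#1 they were 76.9, 80.7 and 84.7 CPM, and with siVps28#2 they were 121, 89.9 and 139 CPM. All 12 depleted libraries thus lay above all 3 siCtrl#1 libraries, whereas 7 of the 12 lay above all 6 nontargeting libraries. In order of their means the groups ran from siCtrl#1 (46.3 ± 11.7 CPM, SD, n = 3) through siVps28#1 (80.8 ± 3.89), siCtrl#2 (85.3 ± 8.11), siTsg101#2 (100 ± 20.2) and siVps28#2 (117 ± 25.1) to siTsg101#1 (124 ± 17.8). Only siCtrl#1 stood apart from its neighbour by more than their SDs, and every other neighbouring pair in that order overlapped within 1 SD of each mean.

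ATP6V0A2 encodes the a2 form of subunit a, which is associated with the Golgi and early endosomes. It spans chr12:124196900-124246302 on the plus strand of GRCh37, and 549 of its 17214 exon bases overlap a locus on the other strand, whose reads could not be told apart without the strand setting of the counting. Its counts were low, 12 to 94 per library, so that its values carry more counting error than those of ATP6V0A1. The siCtrl#1 libraries held 3.62, 4.92 and 3.08 CPM, and the siCtrl#2 libraries 3.03, 5.45 and 5.01 CPM. With siTsg101#1 the levels were 10.6, 8.13 and 8.65 CPM, and with siTsg101#2 they were 13.1, 14.6 and 9.14 CPM. All 6 libraries depleted of TSG101 exceeded every other library. With siVps28#1 the levels were 7.84, 6.00 and 5.26 CPM, and with siVps28#2 they were 5.03, 6.44 and 5.38 CPM. These VPS28-depleted libraries were above all siCtrl#1 libraries but overlapped those of siCtrl#2. The group means rose from siCtrl#1 (3.87 ± 0.945 CPM, SD, n = 3) over siCtrl#2 (4.5 ± 1.29), siVps28#2 (5.62 ± 0.734), siVps28#1 (6.37 ± 1.32) and siTsg101#1 (9.14 ± 1.32) to siTsg101#2 (12.3 ± 2.84). Of these neighbours, siVps28#1 and siTsg101#1 were the pair whose SDs did not overlap.

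TCIRG1 encodes a3, the form of subunit a that osteoclasts use to acidify bone and that is also found on lysosomes. It spans chr11:67806492-67818362 on the plus strand of GRCh37, and its counts were also low, 15 to 77 per library. The siCtrl#1 libraries held 10.9, 9.84 and 9.74 CPM and the siCtrl#2 libraries 9.85, 7.18 and 5.40 CPM. The 12 depleted libraries ranged from 6.14 to 12.8 CPM with a median of 8.68 CPM. The groups overlapped, and 2 of the 12 depleted libraries were above all siCtrl#1 libraries.

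**Figure D1:**
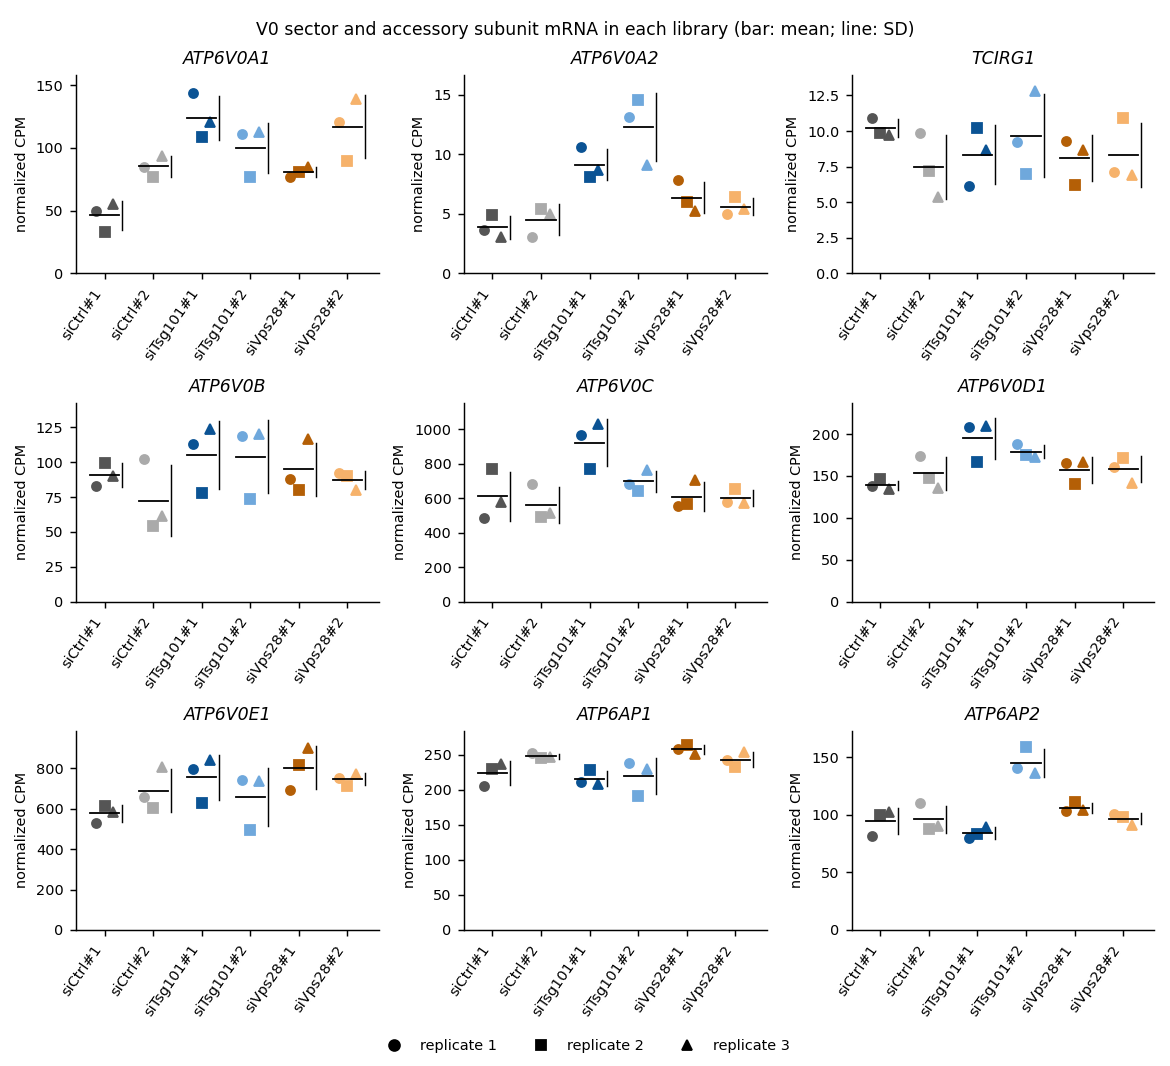
Level of each of the 9 V0 and accessory subunit mRNAs in normalized CPM (vertical axes, from 0) in the 6 siRNA groups; points are libraries, shaped by replicate, with the mean as a bar and the SD as a line. The siCtrl#1 points of ATP6V0A1 lie between 33.2 and 55.7 CPM, below every other library, and the siTsg101#2 points of ATP6AP2 lie between 136 and 159 CPM, above every other library.

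The first comparison asks how the subunit mRNAs changed with depletion of ESCRT-I, taking siCtrl#1 as the reference that the study design names. Averaged over the 4 on-target siRNAs, 2 of the 9 genes rose and 0 fell, where 12.2% of all tested genes rose. A gene is said here to have risen or fallen where edgeR's quasi-likelihood test gave a Benjamini-Hochberg adjusted p under 0.05 over all tested genes. The fold changes were above 0 on the log2 scale for 8 of the 9, with a median of 0.19, against a median of -0.0034 over all tested genes. ATP6V0A1 rose 2.23-fold (log2 fold change 1.16, SE 0.17, adjusted p = 2.49e-05, edgeR), and it was higher in 12 of 12 depleted libraries than in the siCtrl#1 library of the same batch, with mean log2 differences per batch of 1.14, 1.4 and 1.01. Against siCtrl#2 it was 1.22-fold higher (log2 fold change 0.29, adjusted p = 0.223, edgeR) and did not pass the test. ATP6V0A2 rose 2.1-fold (log2 fold change 1.07, SE 0.25, adjusted p = 0.00267, edgeR), again in 12 of 12 libraries, with mean log2 differences per batch of 1.17, 0.7 and 1.07. Neither promoter window held the letters searched above, and a link between these letters and a change of any of the 9 mRNAs was not tested. In these bulk libraries, more cells of one state and more RNA per cell cannot be told apart. Of the 9 genes, 2 had all 12 depleted libraries above all 3 siCtrl#1 libraries, and 5.87% of all tested genes did.

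TCIRG1 did not pass the test (log2 fold change -0.24, 95% confidence interval -0.69 to 0.22). The balance between the forms of subunit a was tested on their ratios within each library, first against siCtrl#1. Both ATP6V0A1 and ATP6V0A2 had already risen against these same siCtrl#1 libraries. Lower ratios of TCIRG1 to them are therefore not independent of those calls. The ratio of TCIRG1 to ATP6V0A1 counts was 0.22, 0.3 and 0.176 in the siCtrl#1 libraries and 0.0441 to 0.122 in the 12 depleted ones. The log2 ratio was lower by a difference of -1.46 on average (two-sided exact permutation test, p = 0.0022, the smallest this design allows, adjusted p = 0.00659 over 3 ratios). The 12 depleted libraries come from 4 siRNAs and are not replicates of a single condition. These tests shuffled them freely with the siCtrl#1 libraries, without regard to siRNA or batch. The ratio of TCIRG1 to ATP6V0A2 counts was 2.94, 1.97 and 3.11 in siCtrl#1 and 0.481 to 1.68 in the depleted libraries, a log2 difference of -1.3 (exact permutation test, adjusted p = 0.00659). The ratio of ATP6V0A1 to ATP6V0A2 differed by 0.16 on the log2 scale (exact permutation test, adjusted p = 0.708). In siCtrl#2 the TCIRG1 to ATP6V0A1 ratio was 0.117, 0.0944 and 0.0587, within the range of the depleted libraries. With siCtrl#2 as the reference the differences in the ratios to TCIRG1 were -0.071 for ATP6V0A1 and -0.63 for ATP6V0A2 (exact permutation test, adjusted p = 0.82 and 0.254), so that neither passed the test.

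**Figure D2:**
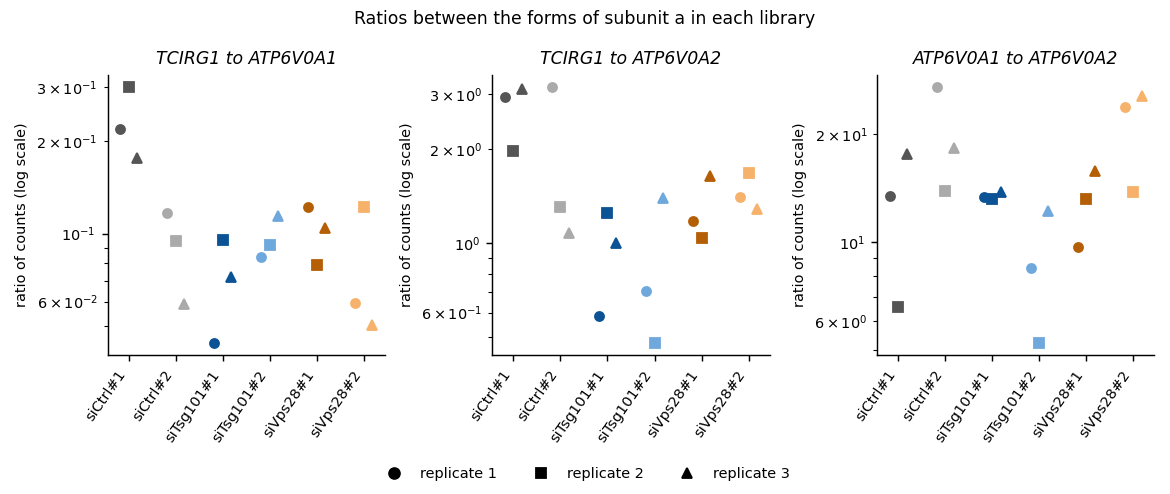
Ratio of the counts of 2 forms of subunit a within each library (vertical axes, log scale) in the 6 siRNA groups; points are libraries, shaped by replicate. In the left panel the siCtrl#1 libraries lie at 0.176 to 0.3, above all depleted libraries (0.0441 to 0.122), and the siCtrl#2 libraries lie among the depleted ones.

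The c subunits form the proton-carrying ring. ATP6V0C encodes the c subunit itself and ATP6V0B the related subunit c'' of the same ring. ATP6V0C spans chr16:2563953-2570219 on the plus strand of GRCh37, and 98.8% of its longest annotated transcript is shared, in stretches of at least 50 bases, with 2 unnamed loci on the same strand, so that its counts may include reads of either. Its levels were 485, 766 and 580 CPM in siCtrl#1, and 679, 488 and 511 CPM in siCtrl#2. They were 965, 771 and 1030 CPM with siTsg101#1, and 684, 641 and 764 CPM with siTsg101#2. All siTsg101#1 libraries exceeded those of the nontargeting groups, those of siTsg101#2 overlapped them, and the 6 VPS28-depleted libraries, at 553 to 706 CPM, overlapped them as well. ATP6V0B spans chr1:44440159-44443967 on the plus strand and held 82.9 to 99.6 CPM in siCtrl#1, 54.5 to 102 CPM in siCtrl#2 and 73.8 to 124 CPM in the depleted libraries, with no group apart from the others. Over the 4 siRNAs, the log2 fold change was 0.19 (95% confidence interval -0.1 to 0.48) for ATP6V0C and 0.11 (-0.26 to 0.47) for ATP6V0B, whose promoter holds the 2 matches shown above.

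ATP6V0D1 encodes subunit d, which couples the c ring to the central stalk, and ATP6V0E1 the small membrane subunit e. ATP6V0D1, whose promoter holds the longer match shown above, spans chr16:67471917-67515084 on the minus strand of GRCh37. Its levels were 138, 146 and 135 CPM in siCtrl#1, 174, 148 and 136 CPM in siCtrl#2, and 208, 167 and 210 CPM with siTsg101#1. They were 173 to 188 CPM with siTsg101#2 and 140 to 172 CPM in the 6 VPS28-depleted libraries. The siCtrl#2 library of batch 1 reached into the range of the TSG101-depleted libraries. The log2 fold change over the 4 siRNAs was 0.3 (SE 0.12, adjusted p = 0.0674, edgeR). ATP6V0E1 spans chr5:172410774-172462448 on the plus strand and held 531, 615 and 585 CPM in siCtrl#1, 658, 603 and 808 CPM in siCtrl#2 and 494 to 903 CPM in the depleted libraries. In 11 of the 12 depleted libraries its level was above all siCtrl#1 libraries, and in 3 it was above all nontargeting ones. Its log2 fold change was 0.36 (SE 0.14, adjusted p = 0.0631, edgeR), and with the batch as a block it passed the test (adjusted p = 0.0395).

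The accessory proteins are ATP6AP1, also called Ac45, and ATP6AP2, the prorenin receptor, both of which are needed for assembly of the pump. ATP6AP1 spans chrX:153656979-153664862 and ATP6AP2 chrX:40438624-40466100, both on the plus strand of GRCh37. ATP6AP1 held 206 to 237 CPM in siCtrl#1, 246 to 252 CPM in siCtrl#2 and 191 to 264 CPM in the depleted libraries. ATP6AP2 was at 81.6, 99.9 and 102 CPM in siCtrl#1, at 110, 87.9 and 90.4 CPM in siCtrl#2 and at 79.4, 82.9 and 89.5 CPM with siTsg101#1. With siTsg101#2 it was at 141, 159 and 136 CPM, and with the VPS28 siRNAs at 91.1 to 111 CPM. The siTsg101#2 libraries were above all others, and those of siTsg101#1 were within or below the nontargeting range. Averaged over the 4 siRNAs, the log2 fold change was 0.057 (95% confidence interval -0.16 to 0.28) for ATP6AP1 and 0.16 (-0.072 to 0.39) for ATP6AP2.

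The second set of comparisons takes each on-target siRNA alone. The 4 comparisons share the same 3 siCtrl#1 libraries and are not independent. With all 4 siRNAs, 1 of the 9 rose, ATP6V0A1, where 2.92% of all tested genes did, but against siCtrl#2 it passed with 0 of the 4. With at least 1 siRNA, 5 of the 9 rose, where 19.3% of all tested genes did, and 0 fell with any. With siTsg101#1, 4 of the 9 rose, where 13.8% of all tested genes did. They were ATP6V0A1 (log2 fold change 1.41, adjusted p = 1.57e-05, edgeR), ATP6V0A2 (1.25, adjusted p = 0.003), ATP6V0C (0.6, adjusted p = 0.0152) and ATP6V0D1 (0.48, adjusted p = 0.0169). The calls of the last pair were lost on leaving out any one of 3 or 4 of the 18 libraries, where the log2 fold changes were 0.45 to 0.56 for ATP6V0C and 0.42 to 0.47 for ATP6V0D1. ATP6V0C missed the threshold without replicate 1 or 3 of siCtrl#1 or replicate 3 of siTsg101#1, with adjusted p of 0.101, 0.0573 and 0.0767. ATP6V0D1 missed it without the same libraries, with adjusted p of 0.051, 0.0586 and 0.0792, and also without replicate 1 of siTsg101#1 (adjusted p = 0.0621, edgeR). Against siCtrl#2, siTsg101#1 left ATP6V0D1 at 0.35, which did not pass (adjusted p = 0.0945, edgeR). ATP6V0C passed there, at 0.72 (adjusted p = 0.00553, edgeR).

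With siTsg101#2, 3 of the 9 rose against 11.6% of all genes, namely ATP6V0A1 (1.1, adjusted p = 0.000337, edgeR), ATP6V0A2 (1.7, adjusted p = 0.000129) and ATP6AP2 (0.62, adjusted p = 0.00292). With siVps28#1, 1 of the 9 rose against 5.38% of all genes, which was ATP6V0A1 (0.79, adjusted p = 0.0126, edgeR). Without replicate 2 of siCtrl#1 this call was lost (0.61, adjusted p = 0.0835). With the batch as a block, ATP6V0E1 passed as well with siVps28#1 (0.47, adjusted p = 0.0434), which made 2 of the 9. That fit called 12.4% of all tested genes in either direction. Against siCtrl#2, ATP6V0E1 was at 0.22 with siVps28#1 (adjusted p = 0.574, edgeR). With siVps28#2, 1 of the 9 rose against 8.12% of all genes, again ATP6V0A1 (1.33, adjusted p = 6.29e-05, edgeR). ATP6V0A2 was at 0.74 with siVps28#1 and 0.57 with siVps28#2 and did not pass the test (adjusted p = 0.141 and 0.215, edgeR).

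**Figure D3:**
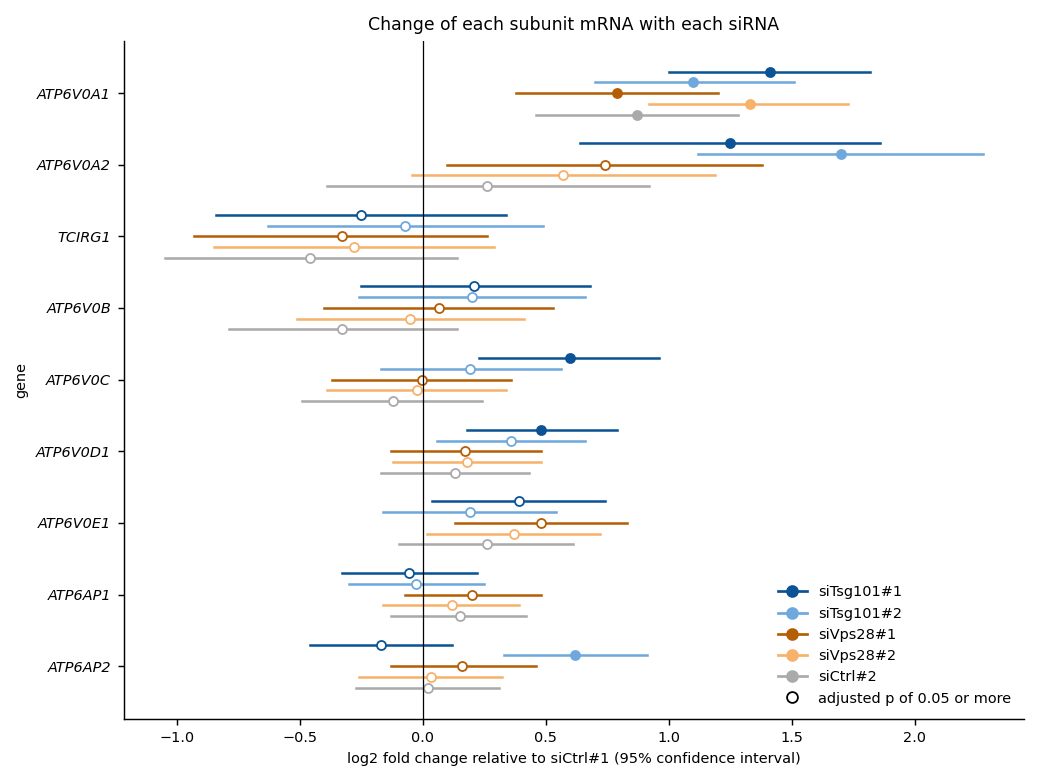
Log2 fold change relative to siCtrl#1 (horizontal axis) of each of the 9 genes with each on-target siRNA and with siCtrl#2; lines are 95% confidence intervals, and filled points had an adjusted p under 0.05. ATP6V0A1 is filled with all 4 on-target siRNAs, from 0.79 to 1.41, and also with siCtrl#2, at 0.87.

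The nontargeting siRNAs were then compared with each other, which gives a single difference per subunit mRNA between siRNAs without a depletion target. The series holds no untransfected libraries, so which of the nontargeting groups moved cannot be told. With siCtrl#2, 1 of the 9 rose relative to siCtrl#1, where 1.45% of all tested genes did. That gene was ATP6V0A1, which was 1.83-fold higher (log2 fold change 0.87, SE 0.2, adjusted p = 0.0186, edgeR). The call was lost without replicate 1 or 2 of siCtrl#1 or replicate 3 of siCtrl#2, where the log2 fold change was 0.92, 0.69 and 0.8 (adjusted p = 0.0521, 0.117 and 0.108, edgeR). The other 8 ranged from -0.46 for TCIRG1 to 0.26 for ATP6V0A2 and ATP6V0E1.

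When siCtrl#2 served as the reference, 1 of the 9 rose over the 4 on-target siRNAs, where 8.33% of all tested genes did. It was ATP6V0A2 (log2 fold change 0.8, SE 0.24, adjusted p = 0.0213, edgeR). Of the single siRNAs, ATP6V0A2 passed with siTsg101#1 and siTsg101#2 (0.99 and 1.44, adjusted p = 0.0169 and 0.000618, edgeR). With siVps28#1 and siVps28#2 it was at 0.48 and 0.31 and did not pass (adjusted p = 0.456 and 0.569, edgeR). ATP6V0A1 was at 0.29 (95% confidence interval -0.036 to 0.61), and with the single siRNAs at 0.54, 0.23, -0.079 and 0.45 for siTsg101#1, siTsg101#2, siVps28#1 and siVps28#2, none of which passed the test. TCIRG1 was at 0.22 and ATP6AP1 at -0.088, each with the opposite sign to its value against siCtrl#1. With the mean of both nontargeting groups as the reference, 2 of the 9 rose against 15% of all genes, and these were ATP6V0A1 (0.72, adjusted p = 9.98e-05, edgeR) and ATP6V0A2 (0.94, adjusted p = 0.000452). Of the 9 genes, 0 had all 12 depleted libraries above all 6 nontargeting ones, where 1.96% of all tested genes did. ATP6V0A2 came nearest, with 9 of the 12 libraries above.

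A further comparison asks whether loss of TSG101 and loss of VPS28, subunits of the same complex, changed these mRNAs alike. Between the mean of the 2 TSG101 siRNAs and the mean of the 2 VPS28 siRNAs, 2 of the 9 genes differed, where 11.8% of all tested genes differed in either direction. ATP6V0A2 was 1.76-fold higher with the TSG101 siRNAs (log2 difference 0.82, SE 0.19, adjusted p = 0.0048, edgeR), as its library values above show. ATP6V0C was 1.33-fold higher (0.41, SE 0.13, adjusted p = 0.0343, edgeR). Against siCtrl#1, however, ATP6V0C was at 0.6 with siTsg101#1 and at 0.19 with siTsg101#2 (adjusted p = 0.0152 and 0.476, edgeR). The log2 difference between these TSG101 siRNAs was 0.41 (95% confidence interval 0.04 to 0.77, adjusted p = 0.172, edgeR). The ATP6V0C call was lost on leaving out any one of 8 of the 12 depleted libraries, where the log2 difference stayed at 0.36 to 0.41 and the adjusted p was 0.0598 to 0.0911. ATP6V0A1, the gene that rose with all 4 siRNAs, differed by 0.2 (95% confidence interval -0.083 to 0.48).

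Between the siRNAs of 1 target, the TSG101 pair differed in 1 of the 9 genes, where 7.95% of all tested genes differed. ATP6AP2 was lower with siTsg101#1 than with siTsg101#2 (log2 difference -0.79, SE 0.14, adjusted p = 0.000958, edgeR), and the groups of 3 libraries did not overlap. The VPS28 pair differed in 0 of the 9 by edgeR and by DESeq2, where 0.48% of all tested genes differed by edgeR. At an unadjusted p under 0.05, ATP6V0A1 alone was lower with siVps28#1 than with siVps28#2 (log2 difference -0.53, 95% confidence interval -0.93 to -0.13, adjusted p = 0.391, edgeR).

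The V0 genes were set beside lists of other genes of proton pumping, for the mean of the 4 siRNAs against siCtrl#1. All 8 tested genes of the ATP-hydrolysing V1 sector, of 12 on the panel, had log2 fold changes above 0, 4 rose and 0 fell, and the median was 0.43, where 12.2% of all tested genes rose and the median was -0.0034. ATP6V1H, the regulatory subunit H, rose by 0.9 (adjusted p = 0.00117, edgeR), ATP6V1B2, of the catalytic head, by 0.63 (adjusted p = 0.00265), ATP6V1C1, of the stator, by 0.51 (adjusted p = 0.00981), and ATP6V1E1, of the peripheral stalk, by 0.39 (adjusted p = 0.0344). With siTsg101#1, siTsg101#2, siVps28#1 and siVps28#2 taken singly, 3, 3, 0 and 4 of the 8 V1 genes rose. The shares of all tested genes that rose were 13.8%, 11.6%, 5.38% and 8.12%. With siVps28#1 all 8 were still above 0, with a median of 0.52. RNASEK, a further V0-associated protein and 1 of 4 other V0 genes on the panel with enough counts, rose by 0.48 (adjusted p = 0.00586, edgeR). Against siCtrl#2 the V1 median was 0.33 and 3 of the 8 rose (8.33% of all tested genes did), namely ATP6V1D, ATP6V1G1 and ATP6V1H, of which ATP6V1H was the single gene to rise with both references, and RNASEK rose by 0.4 (adjusted p = 0.0256, edgeR).

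Of 9 tested genes of endolysosomal ion transport, 4 rose, 1 fell and the median was 0.41, where 12.2% of all tested genes rose and 11.5% fell. OSTM1, the partner of the lysosomal chloride-proton exchanger, rose by 0.88, the exchangers CLCN6 and CLCN7 by 0.78 each, and MCOLN1, a lysosomal cation channel, by 0.64. These means hide differences between the targets. OSTM1 was at 1.29 and 1.48 with the TSG101 siRNAs and at 0.6 and 0.15 with the VPS28 siRNAs (log2 difference 1.01, adjusted p = 1.17e-05, edgeR). CLCN6 was at 0.12 and 0.78 with the TSG101 siRNAs and at 1.11 with each VPS28 siRNA (log2 difference -0.66, adjusted p = 0.00453, edgeR). TPCN1, a second endolysosomal cation channel, had a log2 fold change of -0.53 (adjusted p = 0.0136, edgeR). Of the single siRNAs, TPCN1 passed with siTsg101#2 (-1.03, adjusted p = 0.000749, edgeR). With siTsg101#1, siVps28#1 and siVps28#2 it was at -0.53, -0.18 and -0.37 and did not pass. It was lower with the TSG101 than with the VPS28 siRNAs (log2 difference -0.5, adjusted p = 0.0206, edgeR). The same 4 genes passed the test against siCtrl#2, with 0.79, 0.57, 0.83 and 0.67, while TPCN1 was at -0.32 and did not pass. Of the 11 assembly factors and regulators of the pump, 0 rose and 2 fell, where 11.5% of all tested genes fell. ROGDI, of the complex that promotes V1-V0 reassembly, had a log2 fold change of -0.7 (adjusted p = 0.00657, edgeR), and CCDC115, an assembly factor of the V0 sector, one of -0.57 (adjusted p = 0.0129). Of the single siRNAs, both passed with siTsg101#1 (-1.09 and -0.85, adjusted p = 0.00239 and 0.00645, edgeR) and neither with another. Over the 4 siRNAs, neither passed against siCtrl#2 (-0.39 and -0.42, adjusted p = 0.169 and 0.0922, edgeR). With the batch as a block, TLDC1 of this list also passed against siCtrl#1 (0.4, adjusted p = 0.0422), but against siCtrl#2 it was at 0.14 (adjusted p = 0.573, edgeR). Of the MiT-TFE factors, which switch on lysosomal genes, 0 of 3 passed the test, and TFEB was at 0.53 (adjusted p = 0.0552, edgeR) or, with the batch as a block, at 0.54 (adjusted p = 0.0387). Against siCtrl#2, TFEB was at 0.16 (adjusted p = 0.614, edgeR). With siTsg101#2 alone TFEB passed against siCtrl#1 (1, adjusted p = 0.00375, edgeR) but not against siCtrl#2 (0.63, adjusted p = 0.057). TFEB was higher with the TSG101 than with the VPS28 siRNAs (log2 difference 0.57, adjusted p = 0.0249, edgeR). TFE3 went the other way (-0.46, adjusted p = 0.0104, edgeR), and MITF did not pass (0.38, adjusted p = 0.529).

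**Figure D4:**
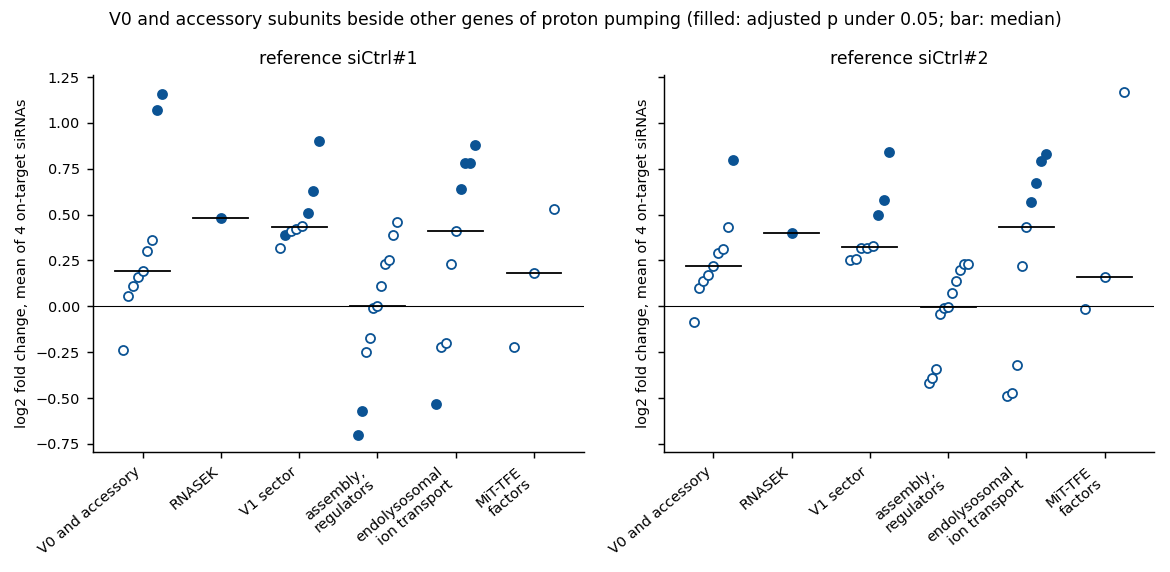
Log2 fold change over the mean of the 4 on-target siRNAs (vertical axis) of each tested gene of 6 lists, with siCtrl#1 as the reference on the left and siCtrl#2 on the right; filled points had an adjusted p under 0.05 and bars are medians. The V0 and accessory genes have medians of 0.19 and 0.22, and ATP6V0A1 is filled on the left, at 1.16, and open on the right, at 0.29.

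Across the 18 libraries, the genes of the group did not move as one. The highest Pearson correlation of log2 CPM between 2 of them was 0.8, for ATP6V0C and ATP6V0D1, followed by 0.73 for ATP6V0B and ATP6V0C. The lowest was -0.43, for ATP6V0A2 and ATP6AP1. The pairs share library and batch, so these values are descriptions. Outside the lists, the genes most like the mean standardized level of the 9 included AP5Z1 (Pearson r 0.918 over 18 libraries), GLIS2 (0.911), MTG1 (0.886) and ZNF706 (0.848), picked from the highest of all tested genes.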

How the data were processed

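Per the labels, total RNA of RKO cells was made into libraries with the Ion AmpliSeq Transcriptome panel. The authors sequenced them on an Ion Proton, used the Torrent aligner against the hg19 version of the panel and made counts with HTSeq 0.6.0. The deposited values are whole-number counts per target, not normalized; rows naming no gene (53.32 to 54.6% of counts) were left out.

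Targets with over 100 counts in all were kept (10632) and 419 noncoding ones left out. A fit of the 6 groups in edgeR 4.0.16 (R 4.3.3, TMM, quasi-likelihood test, Benjamini-Hochberg) gave all calls, after a check on simulated counts. DESeq2 1.42.0, other filters, references, left-out libraries and a batch block were alternatives. The label gives the batch, and libraries of 1 batch deviated together weakly (mean correlation 0.145 over 45 pairs, from -0.148 to 0.389). Deviations were taken from each group's own mean, which by itself makes pairs of different batches lean negative (mean -0.0729 over 90 pairs). Replicates differed by more than sampling noise.

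Named genes are the 9 members, TSG101 and VPS28, the 3 largest called changes of each list with others a small count needs, and the 5 genes most like the members, 1 of which is not reported here. Members and lists were chosen with earlier results of these data known. Ratios added 0.5 to each count. PCR reads carry no molecular identifiers, and no test rested on counting error alone. The edgeR tests used the spread between libraries together with counting error.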

Additional observations from a re-analysis of the deposited data

Results flagged for a closer look

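Effects that differed between siRNAs by a test of the difference itself drew a closer look for 3 of the 9 genes. ATP6V0A2 was higher with the TSG101 than with the VPS28 siRNAs (log2 difference 0.82, adjusted p = 0.0048, edgeR). ATP6V0C was higher by 0.41 (adjusted p = 0.0343, edgeR), a call lost on leaving out any one of 8 libraries, with adjusted p of 0.0598 to 0.0911. Against siCtrl#1, ATP6V0C was at 0.6 with siTsg101#1 and at 0.19 with siTsg101#2. ATP6AP2 differed by -0.79 between siTsg101#1 and siTsg101#2 (adjusted p = 0.000958, edgeR) although both deplete TSG101, to 3.27 to 4.75 CPM and 2.49 to 4.99 CPM. The cause was not tested for any of them. Groups of 3 libraries are too small for a test of single outlying libraries.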

How the results depend on the processing

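The reference decided most counts. With siCtrl#2 as the reference, 1 gene rather than 2 passed over the 4 siRNAs, 2 rather than 4 with siTsg101#1, and 0 rather than 1 with siVps28#1 and with siVps28#2. With the mean of both nontargeting groups, 0 passed with siVps28#1. DESeq2 called 4 genes over the 4 siRNAs, adding ATP6V0D1 and ATP6V0E1. It called 24.3% of all genes in either direction, where the main fit called 23.8%. Against siCtrl#2, ATP6V0D1 and ATP6V0E1 were at 0.17 and 0.1 and did not pass (adjusted p = 0.356 and 0.675, edgeR). The replicate block called 2 with siVps28#1 and added ATP6V0E1 over the 4 siRNAs (log2 fold change 0.35), and it changed no other call of these 9 genes. In these 2 comparisons it called 12.4% and 27.5% of all tested genes in either direction. Fitting only the groups compared left 0 calls between the nontargeting siRNAs, where 0.871% of all tested genes were called in either direction. A 1.5-fold minimum left 1 between the TSG101 and VPS28 siRNAs, where 6.23% of all tested genes were called. Other normalization or filters kept every count within 1.5 times. Single libraries left out gave 2 to 4 calls over the 4 siRNAs (4 without siTsg101#1 replicate 2), 2 to 4 with siTsg101#1, 0 to 2 with siVps28#1 (2 without siTsg101#2 replicate 2), 0 to 1 between the nontargeting siRNAs and 1 to 2 between the TSG101 and VPS28 siRNAs.

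With siCtrl#2 as the reference, the log2 fold change of TCIRG1 reversed to 0.22 and that of ATP6AP1 to -0.088, and with both groups ATP6AP1 was at -0.016. With libraries left out ATP6AP1 ranged from -0.0051, without siCtrl#1 replicate 1, to 0.1. The ratio of ATP6V0A1 to ATP6V0A2 reversed to -0.56 against siCtrl#2 and -0.2 against both, and ranged from -0.25, without siCtrl#1 replicate 2, to 0.46. The ratios of TCIRG1 to ATP6V0A1 and to ATP6V0A2 weakened to -0.071 and -0.63 against siCtrl#2. The causes were not tested. Within batches, the smallest p for a ratio was 0.008, and both TCIRG1 ratios kept an adjusted p of 0.012 by exact permutation. Low counts limit ATP6V0A2 and TCIRG1, and with 3 libraries a group, a missed threshold does not show that levels were equal.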
